A study of Mus musculus with 2 samples.

Results

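Lag3, Havcr2 (the gene of TIM3), Tigit, Cd226 and Cd96 encode receptors of T cells and natural killer (NK) cells, and Pvr, Nectin2 and Lgals9 encode ligands that bind them. These 8 genes were taken by symbol from the 32285 genes of the deposited count matrices, and all 8 were found. RM-1, a prostate cancer line from the mouse with wild-type genotype per the labels, had been grafted under the skin of C57BL/6 mice. The tumours were taken 10 days after treatment with vehicle or with RP-6306, which inhibits PKMYT1, a kinase that holds the mitotic kinase CDK1 inactive. CD45+ cells were sorted by flow cytometry and mixed with tumour cells at a ratio of 3 to 1, so the shares of the cell classes reflect the sort and the mix. Each treatment had 1 library, and the sources used here do not say whether a library came from 1 tumour, so drug, animal and library cannot be told apart. No p-value can be given: every interval below is an exact 95% interval that covers counting error only, from the Poisson distribution for levels and after Clopper and Pearson for shares of cells.

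TIGIT, CD226 and CD96 compete for PVR (CD155) on other cells, and TIGIT and CD226 also bind nectin-2 (CD112). CD226 gives an activating signal, whereas TIGIT is inhibitory and CD96 has been described as inhibitory in mouse NK cells. TIM3 and LAG3 are inhibitory receptors that appear on activated and chronically stimulated T cells. TIM3 is also made by macrophages and dendritic cells, and galectin-9, the product of Lgals9, is among its described ligands. LAG3 binds MHC class II molecules. In tumours these receptors are studied as markers of dysfunctional and regulatory T cells and as targets of blocking antibodies.

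The promoter of Lgals9 is shown for its copies of an interferon-linked motif and for the cluster in which the gene was highest. Among clusters of at least 50 cells, that was a B cell cluster led by interferon-induced genes. RefSeq promoters on GRCm38.p6, from 250 bases before to 50 bases after the start, were matched by symbol for 5 of the 8 genes, Havcr2, Tigit, Cd96, Nectin2 and Lgals9. The capitals below mark the 2 matches to GAAANNGAAA, the core of the interferon-stimulated response element, which both lie on the strand opposite to the one printed. The window is chr11:78984875-78985174 on the minus strand, and the matches begin 55 bases before and 16 bases after the start.
Lgals9: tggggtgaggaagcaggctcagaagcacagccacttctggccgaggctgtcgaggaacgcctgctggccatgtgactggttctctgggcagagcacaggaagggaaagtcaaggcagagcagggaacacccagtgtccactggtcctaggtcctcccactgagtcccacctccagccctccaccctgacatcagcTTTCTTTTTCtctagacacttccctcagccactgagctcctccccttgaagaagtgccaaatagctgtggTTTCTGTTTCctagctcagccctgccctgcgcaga

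Searched on both strands, GAAANNGAAA occurred in 1131 of 32851 promoters of this length (3.44%), and in none of the other 4 matched genes. The motif TTCNNNGAA, the interferon-gamma activated site, occurred in 2726 promoters (8.30%), and among the 5 genes only Cd96 held it. These matches describe letters in a fixed window and do not show a bound site.

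After filters, 16082 cells of the vehicle library and 14916 of the RP-6306 library were kept, with medians of 3111 and 2847 UMIs (unique molecular identifiers, each standing for a captured RNA molecule). Classes were rebuilt from marker genes, with the 8 genes kept out of the clustering. Among the 7 main classes tumour cells were read deepest, at medians of 26257 and 30729 UMIs, and B cells shallowest, at 2162 and 1930 UMIs. A share of cells with a UMI follows depth, so each share is also given after thinning every cell to 2000 UMIs, which left out shallower cells (1347 of 3473 and 1898 of 3453 B cells, at most 39 tumour cells in either library). Levels are CPM, the UMIs of a gene scaled to the UMI total of the class, and serve to compare classes and libraries, not genes. Foxp3, the regulatory T cell factor, stood at 188.5 and 194 CPM in regulatory T cells. In the other 6 main classes it was at most 0.770 CPM. Ncr1 stood at 287 and 350 CPM in NK cells. Both genes were used to name these classes, so the values describe the names and do not test them. The clusters without a name took in 23.9% of the vehicle library and 11.7% of the RP-6306 library, and the libraries shared 374 cell barcodes, 328 of them among the kept cells of each.

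**Figure D1:**
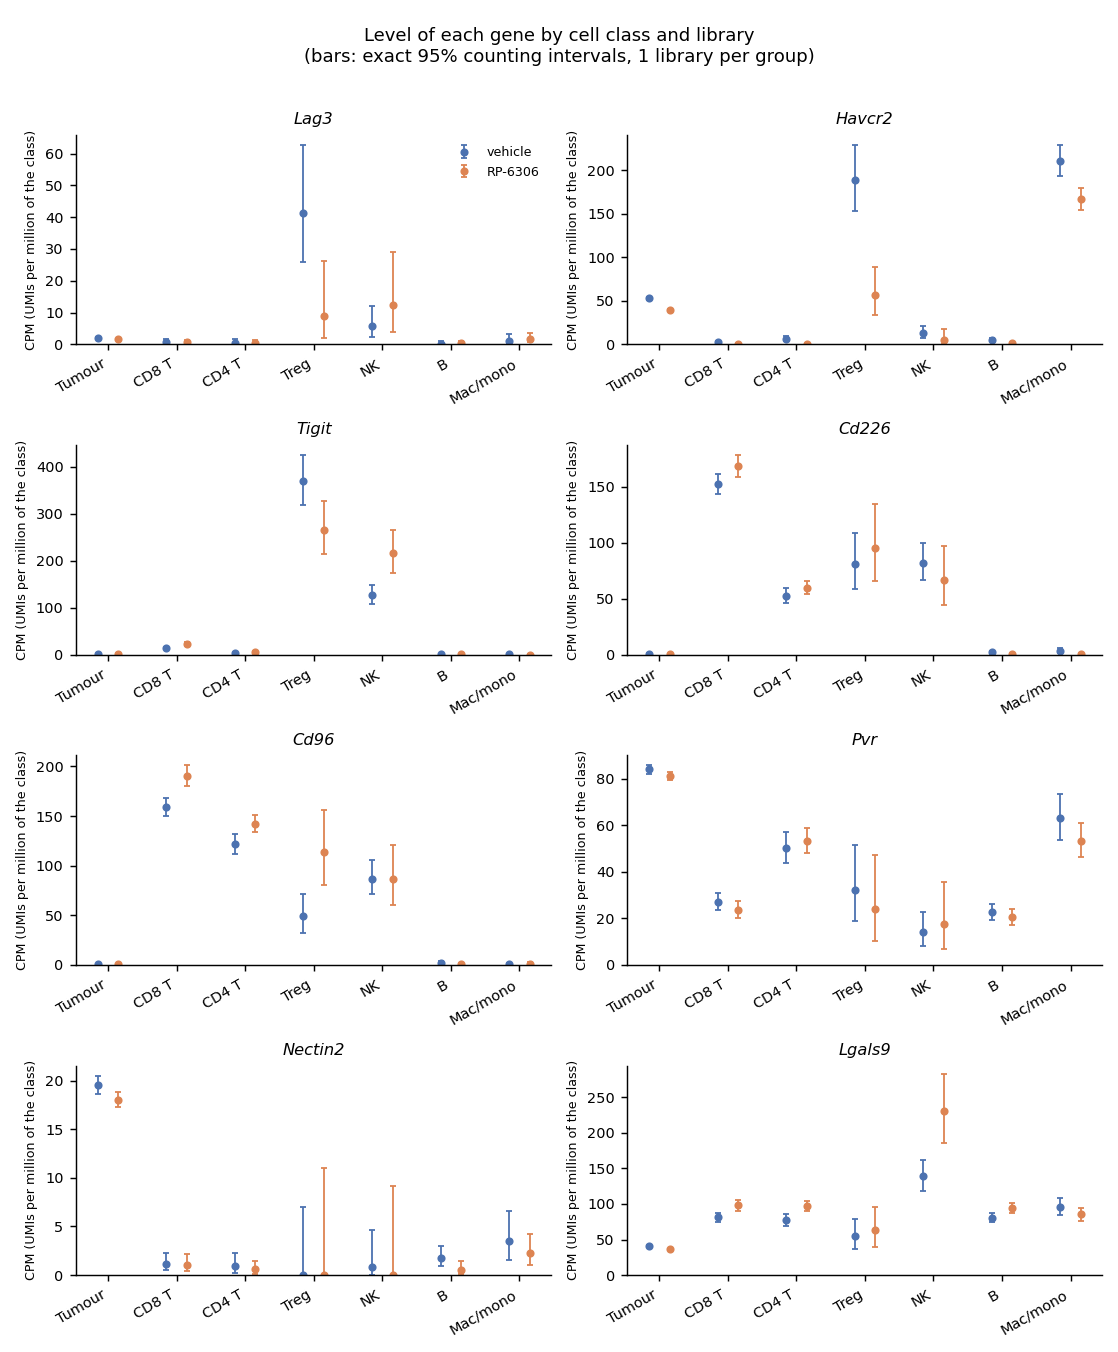
Level of each gene (CPM, linear axes that start at 0) in 7 cell classes of the vehicle and RP-6306 libraries, with points for the 1 library of each group and bars for exact 95% Poisson intervals. Among these classes Nectin2 is high only in tumour cells (19.6 and 18.1 CPM) and Tigit is highest in regulatory T cells (369 and 266 CPM). Havcr2 is higher in macrophages and monocytes than in tumour cells in both libraries.

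Tigit (chr16:43648867-43664146, minus strand, GRCm38) was highest in regulatory T cells in both libraries, at 369 CPM with vehicle (interval 320 to 425) and 266 CPM with RP-6306 (214 to 327). NK cells came next, at 127 CPM (107 to 149) and 216 CPM (173 to 266). With vehicle the intervals of these neighbours lay apart, and with RP-6306 they overlapped. CD8 T cells held 14.0 and 22.0 CPM and other CD4 T cells 3.38 and 4.80 CPM, so the gene was concentrated in a small part of the lymphocytes. At 2000 UMIs per cell, 48.1% of vehicle and 28.2% of RP-6306 regulatory T cells had a Tigit UMI, and 21.4% and 28.6% of NK cells did. In CD8 T cells the thinned share was 2.46% and 4.0%. B cells, which are not known for this receptor, gave 0.235% and 0.129%, and this level was read as background. Tumour cells, the class planned as background for the receptors, gave 0.344% and 0.404%.

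Cd226 was highest in CD8 T cells among the 7 main classes, at 152 CPM (144 to 161) with vehicle and 168 CPM (159 to 179) with RP-6306. Regulatory T cells (81.1 and 95.7 CPM), NK cells (82.0 and 66.9 CPM) and other CD4 T cells (52.6 and 59.9 CPM) followed, and the intervals of regulatory T and NK cells overlapped in both libraries. The thinned shares in CD8 T cells were 24.1% and 27.0%, against 0.329% and 0.0643% in B cells and 0.219% and 0.116% in tumour cells. Cd226 was thus detected in a larger share of CD8 T cells than Tigit in either library, which does not rank the levels of these genes. The small gamma delta T class, of 52 and 17 cells, held 277 CPM from 43 UMIs with vehicle and 67.1 CPM from 3 UMIs with RP-6306, too few cells to compare.

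Cd96 (chr16:46035657-46120251, minus strand) was also highest in CD8 T cells among the main classes, at 159 CPM (150 to 169) and 190.5 CPM (180 to 201). Other CD4 T cells held 121 and 142 CPM and NK cells 87.0 and 86.8 CPM. Unlike Tigit, Cd96 was spread over the conventional T cells: 27.3% and 31.5% of thinned CD8 T cells and 21.4% and 23.3% of thinned CD4 T cells had a UMI, against 0.470% and 0.0643% of B cells. The thinned shares of Cd96 in tumour cells were 0.188% and 0.202%. In regulatory T cells Cd96 stood at 49.0 CPM (32.0 to 71.8) with vehicle and 114 CPM (80.4 to 156) with RP-6306.

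Lag3 (chr6:124904361-124911705, minus strand) was sparse, with 319 UMIs in all vehicle cells and 233 in all RP-6306 cells. Among the named classes, its highest levels with vehicle were in dendritic cells, at 44.5 CPM from 12 UMIs, and regulatory T cells. The latter held 41.5 CPM from 22 UMIs, and these intervals overlapped. With RP-6306 dendritic cells held 12.8 CPM from 7 UMIs, NK cells 12.4 CPM from 5 UMIs and regulatory T cells 8.97 CPM from 3 UMIs, all with overlapping intervals. CD8 T cells held 0.655 and 0.591 CPM, from 5 and 4 UMIs. Because tumour cells were read deepest, they carried 56.7% and 75.5% of all Lag3 UMIs, at levels of 2.08 and 1.56 CPM. At equal depth, 0.344% and 0.173% of tumour cells had a Lag3 UMI, against 0.0941% and 0% in B cells (0 of 1555 thinned cells, which allows up to 0.237%) and 7.52% and 4.23% in regulatory T cells.

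Havcr2 (chr11:46454935-46481255, plus strand) was highest in macrophages and monocytes, at 210.2 CPM (193 to 229) with vehicle and 167 CPM (154 to 180) with RP-6306. Regulatory T cells reached 189 CPM (153 to 229) with vehicle, which overlapped the macrophage interval, and 56.8 CPM (34.2 to 88.7) with RP-6306, which did not. Dendritic cells, of 47 and 53 cells, held 167 and 152 CPM. Thinned shares were 31.1% and 28.3% in macrophages and monocytes and 28.6% and 9.86% in regulatory T cells.

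RM-1 tumour cells themselves carried Havcr2, and since they were deep they held 73.8% and 79.2% of its UMIs. Their level was 52.7 CPM with vehicle (51.2 to 54.2) and 39.5 CPM with RP-6306 (38.4 to 40.7), and at full depth 53.2% and 44.4% of tumour cells had a UMI. Macrophage RNA in the same droplets was checked with 6 macrophage genes (Lyz2, C1qa, C1qb, C1qc, Csf1r and Adgre1), whose levels in tumour cells were between 0.0305% and 0.154% of their levels in macrophages. Among tumour cells with no UMI of any of the 6, 53.1% of 3029 and 44.3% of 3192 still had Havcr2, at 52.3 and 39.2 CPM. For this gene tumour cells are therefore no background class. B cells held 5.02 and 1.55 CPM, and the thinned shares were 8.86% and 6.44% in tumour cells and 1.03% and 0.257% in B cells.

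**Figure D2:**
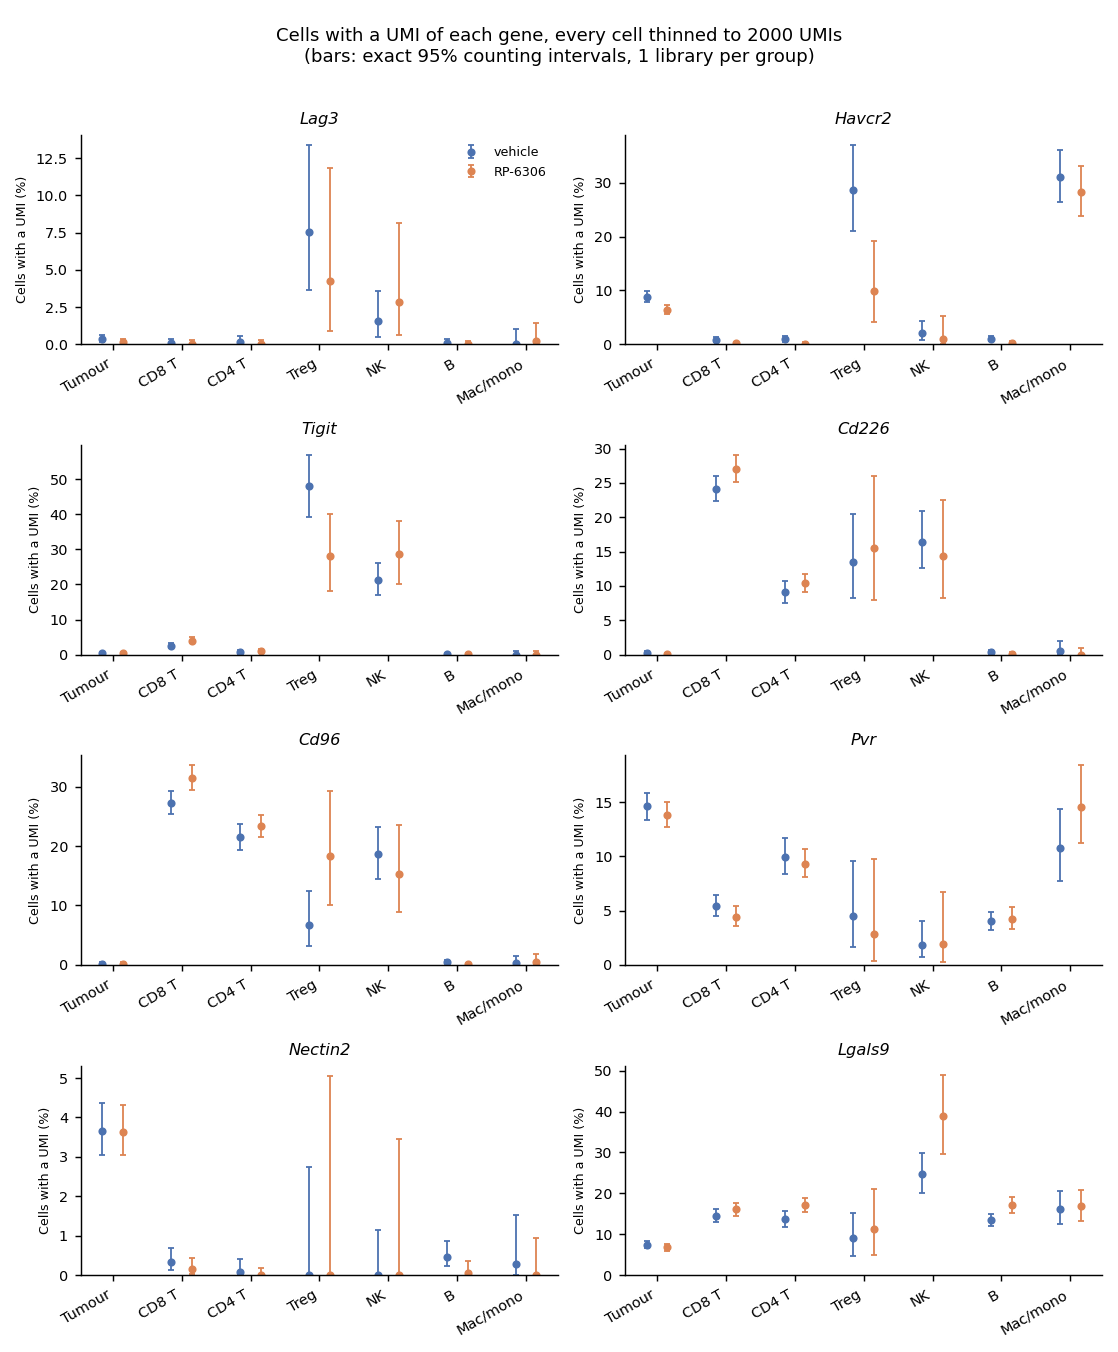
Share of cells (percent, linear axes that start at 0) with at least 1 UMI of each gene after every cell was thinned to 2000 UMIs, for 7 classes and both libraries, with exact 95% Clopper-Pearson intervals as bars. Cd226 and Cd96 are found in 24.1% to 31.5% of CD8 T cells, while Lag3 passes 5% only in vehicle regulatory T cells (7.52%).

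Among the ligands, Pvr (chr7:19903578-19921160, minus strand) was highest in tumour cells, at 84.2 CPM (82.3 to 86.1) with vehicle and 81.3 CPM (79.6 to 83.0) with RP-6306, and 80.3% and 78.3% of tumour cells had a UMI at full depth. It was not a tumour-only gene. The small neutrophil class held 49.6 CPM (13.5 to 127) from 4 UMIs with vehicle and 77.3 CPM (25.1 to 180) from 5 UMIs with RP-6306. Both intervals overlapped those of tumour cells, as did that of vehicle dendritic cells (31.2 to 91.8). Macrophages and monocytes held 63.1 and 53.2 CPM, CD4 T cells other than regulatory cells 50.1 and 53.2 CPM, and CD8 T cells 27.1 and 23.5 CPM. The thinned shares were 14.6% and 13.8% in tumour cells, 10.7% and 14.5% in macrophages and monocytes, and 9.94% and 9.34% in CD4 T cells. B cells, at 22.6 and 20.5 CPM and thinned shares of 4.0% and 4.24%, were the intended background class, and CD8 T cells (5.39% and 4.41%) lay close to them.

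Free tumour RNA in the droplets was estimated from 4 tumour genes (Krt8, Krt18, Krt19 and Lgals7) as a share of their level in tumour cells, which was 7.76% and 4.33% in CD4 T cells and 9.66% and 4.93% in B cells. At these shares it would account for 13.04% and 6.60% of the Pvr level of CD4 T cells, and for 36.0% and 19.5% of that of B cells.

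Nectin2 (chr7:19716644-19750483, minus strand), which lies near Pvr on the same chromosome, was the ligand most restricted to the tumour cells. It stood at 19.6 CPM (18.7 to 20.5) and 18.1 CPM (17.3 to 18.9) there, and tumour cells carried 91.4% and 95.3% of all its UMIs. No other main class passed 3.47 CPM, the value of vehicle macrophages and monocytes. The small dendritic class held 7.42 CPM from 2 UMIs with vehicle (0.90 to 26.8), an interval that overlapped that of tumour cells. With RP-6306 it held 5.50 CPM from 3 UMIs (1.14 to 16.1), which did not overlap. Regulatory T cells had 0 UMIs in both libraries, which allows up to 6.95 CPM with vehicle and 11.03 CPM with RP-6306 as the exact upper limits. The thinned shares were 3.66% and 3.64% in tumour cells and 0.470% and 0.0643% in B cells.

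Lgals9 (chr11:78962974-78984946, minus strand) was found in every main class, and NK cells led in both libraries. NK cells held 139 CPM (119 to 162) with vehicle and 231 CPM (186 to 282) with RP-6306, and neither interval reached that of the next class. With vehicle the others ran from 96.3 CPM in macrophages and monocytes to 40.6 CPM in tumour cells, and with RP-6306 from 98.1 CPM in CD8 T cells to 36.1 CPM in tumour cells. CD8 T, CD4 T and B cells stood close together, at 81.3, 77.6 and 81.0 CPM with vehicle and 98.1, 97.0 and 94.4 CPM with RP-6306, with overlapping intervals. Thinned shares were 24.8% and 39.0% in NK cells against 7.45% and 6.81% in tumour cells.

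Between the libraries, the ligands of tumour cells differed little, and Tigit and Lgals9 were higher with RP-6306 in NK cells. Havcr2 was lower with RP-6306 in each main class in which it was tested, with limits given below. In CD8 T and B cells, and in CD4 T cells with RP-6306, it was below the level that free tumour RNA would give. The regulatory T cells of the libraries came from different clusters, and the macrophage clusters did not share a direction. A difference was called when the log2 ratio of CPM + 1, RP-6306 over vehicle, passed 1.5-fold, and intervals are those of the plain CPM ratio. Of 56 pairs of gene and class, 40 had at least 20 UMIs over both libraries and were compared. Of these, 4 were called higher with RP-6306, 7 lower and 29 lay within the fold, and in 10 the interval was above 0 and in 13 below 0.

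Read by class, 0 of 8 genes were called in either direction in tumour cells, where 1.01% of all genes tested were higher and 1.57% lower. In CD8 T cells 1 of 6 was higher and 1 lower, against 2.71% and 5.9% of all genes. In other CD4 T cells 0 of 6 were higher and 1 lower, against 4.04% and 6.93%. In regulatory T cells 1 of 7 was higher and 2 were lower, against 13.4% and 13.8%, so that calls were common in this small class whatever the gene. In NK cells 2 of 5 were higher and 0 lower, against 9.65% and 9.01%. In B cells 0 of 5 were higher and 3 lower, against 2.37% and 7.5%. In macrophages and monocytes 0 of 3 were called, against 11.6% and 6.16%.

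**Figure D3:**
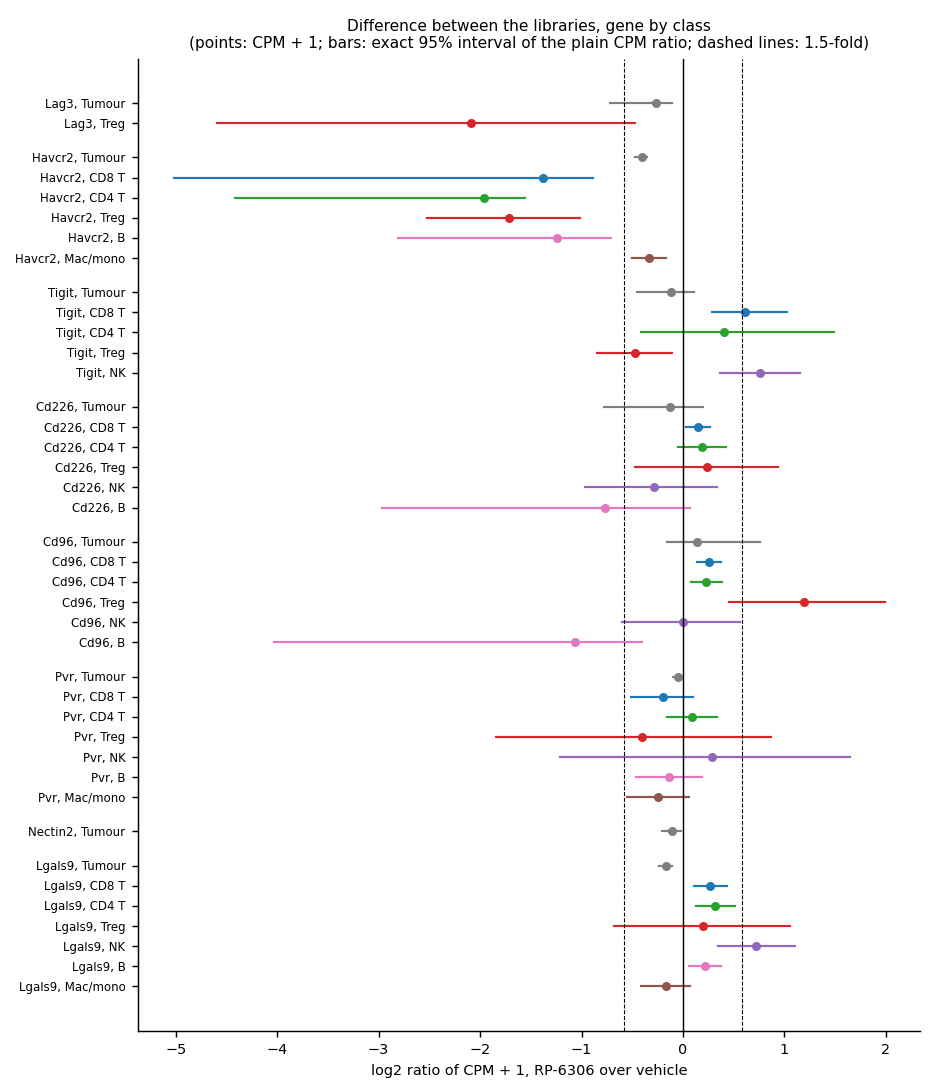
Log2 ratio of CPM + 1, RP-6306 over vehicle (x axis, points), for the 40 gene and class pairs with at least 20 UMIs, coloured by class, with bars for the exact 95% interval of the plain CPM ratio and dashed lines at 1.5-fold. Of the points 4 lie past the line on the right, 7 past the line on the left and 29 between them, and the tumour pairs of Pvr, Havcr2, Lgals9 and Nectin2 have the shortest bars, with points from -0.41 to -0.05.

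In NK cells, Tigit had 153 UMIs with vehicle and 87 with RP-6306, from 414 and 143 cells, and its log2 ratio was 0.76 (0.37 to 1.16). Lgals9 had 168 and 93 UMIs there and a log2 ratio of 0.72 (0.35 to 1.10), while Cd96 (-0.00) and Cd226 (-0.29, interval -0.96 to 0.33) did not pass the fold. T cell RNA moved with these values: the summed level of 5 CD8 T markers in the NK class was 42.3 CPM with vehicle and 96.7 CPM with RP-6306, and Cd3e, a T cell receptor subunit, stood at 4.97 and 19.8 CPM. Lgals9 was lower in CD8 and CD4 T cells than in NK cells in both libraries, but T10, a T cell cluster led by NK receptor genes, held 125 and 194 CPM (log2 ratio 0.63, 0.17 to 1.09). The part of T cell RNA in the Tigit and Lgals9 differences of NK cells was not tested. In CD8 T cells Tigit had a log2 ratio of 0.62 (0.28 to 1.02), just past the fold. It did not pass in 5 of 12 alternatives: a pseudocount of 10 CPM, median-of-ratios size factors, at most 10% mitochondrial UMIs, no doublet removal, and classes from each cell's own markers.

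Tumour cells had the most UMIs, and the ligands had short intervals there. Their log2 ratios were -0.05 for Pvr (-0.10 to -0.01), -0.11 for Nectin2 (-0.21 to -0.02) and -0.17 for Lgals9 (-0.24 to -0.11), all within the fold. Havcr2 differed most among the 8 genes there, at -0.41 (-0.47 to -0.36). In macrophages and monocytes its log2 ratio was -0.33 (-0.50 to -0.17).

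The other lower values of Havcr2 were in classes where it was scarce. It had 21 UMIs with vehicle and 3 with RP-6306 in CD8 T cells (log2 ratio -1.38), 28 and 6 in CD4 T cells (-1.97), and 40 and 11 in B cells (-1.24). Free tumour RNA would give 3.69 and 1.46 CPM in CD8 T cells, where 2.75 and 0.443 CPM were measured, and 5.09 and 1.95 CPM in B cells, where 5.02 and 1.55 CPM were measured. In these 2 classes Havcr2 was thus at or below the level that the free tumour RNA gives. In CD4 T cells it would give 4.09 and 1.71 CPM, against 6.32 and 0.873 CPM measured. The calls of Cd226 (17 and 6 UMIs) and Cd96 (18 and 4 UMIs) in B cells also rest on few molecules, and the summed level of the 5 CD8 T markers in B cells moved with them, from 19.6 CPM with vehicle to 9.27 CPM with RP-6306.

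In regulatory T cells the libraries were made of different clusters, which bears on every value there. With vehicle, 162 of 186 cells belonged to cluster T5, led by Klrg1, Il10, Tnfrsf9 and Ccr8, and with RP-6306, 87 of 127 belonged to cluster T4, led by Gpr83, Nrp1 and Lrrc32. Over the whole class the log2 ratio was -2.09 for Lag3 (22 and 3 UMIs, -4.59 to -0.47), -1.71 for Havcr2 (100 and 19 UMIs, -2.52 to -1.01), -0.47 for Tigit (-0.85 to -0.11) and 1.2 for Cd96 (26 and 38 UMIs, 0.46 to 1.99). At a Leiden resolution of 0.5 Tigit was at 0.15 and Cd96 at 0.36, within the fold. With the mean of per-cell CPM Tigit was at -0.69, and there and with the top cell left out it was called lower. Within T5, whose 40 RP-6306 cells are under the minimum of 50 used for calls, Cd96 stood at 31.2 and 31.8 CPM. Tigit stood at 405 and 541 CPM there (log2 ratio 0.42, 0.03 to 0.79), a direction opposite to that of the class. With RP-6306, 1 cell held 11 of the 89 Tigit UMIs of the class. T4 held only 4 of these UMIs, so this cell lay in T5, whose ratio without it was not computed. Havcr2 was lower with RP-6306 in T5 too, at 208 and 115 CPM (-0.85, -1.67 to -0.13), and Lag3 stood at 45.7 and 19.1 CPM from 22 and 3 UMIs, with overlapping intervals. In T4 Cd96 was at 223 and 186 CPM and Tigit at 20.2 and 22.6 CPM, from 1 and 4 UMIs.

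A further cluster with Foxp3 and Il2ra among its leading genes (148 and 38 cells) also carried genes of another lineage and was left unnamed. It held Tigit at 160.4 and 241 CPM, Havcr2 at 108 and 67.3 CPM and Lag3 at 5.35 and 28.0 CPM, the last from 4 and 5 UMIs. The intervals of the libraries overlapped for each of these genes.

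Clusters within the other classes showed where each gene was concentrated. Outside the named T classes, a cluster led by Gzmk, Il1r2 and Il13 (T0, 217 and 84 cells) held Tigit at 128 and 202 CPM, Havcr2 at 128 and 82.2 CPM, Cd226 at 253 and 209 CPM, and Lag3 at 46.8 and 22.1 CPM from 40 and 7 UMIs. All of these receptors were thus present in the same cluster, and Tigit (log2 ratio 0.66, 0.20 to 1.12) differed between the libraries in the direction opposite to Havcr2 (-0.63, -1.31 to -0.01). Single cells weighed in these sums, and with vehicle 1 cell held 11 of the 40 Lag3 UMIs. Over all T cell clusters outside the named classes, the top cell held 12 of 114 and 8 of 27 Havcr2 UMIs. For Tigit the top cell held 6 of 173 and 15 of 110 UMIs. The ratios of T0 without such cells were not computed. A cluster led by Klra6, Klra1 and Klra7, NK cell receptor genes (T10, 213 and 136 cells), held Tigit at 90.1 and 117 CPM and Cd226 at 182 and 122 CPM. Among CD8 T cells, Tigit was highest in the Ly6c2-led cluster T11, at 23.3 and 45.7 CPM, against 8.16 and 12.2 CPM in the largest cluster T12.

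**Figure D4:**
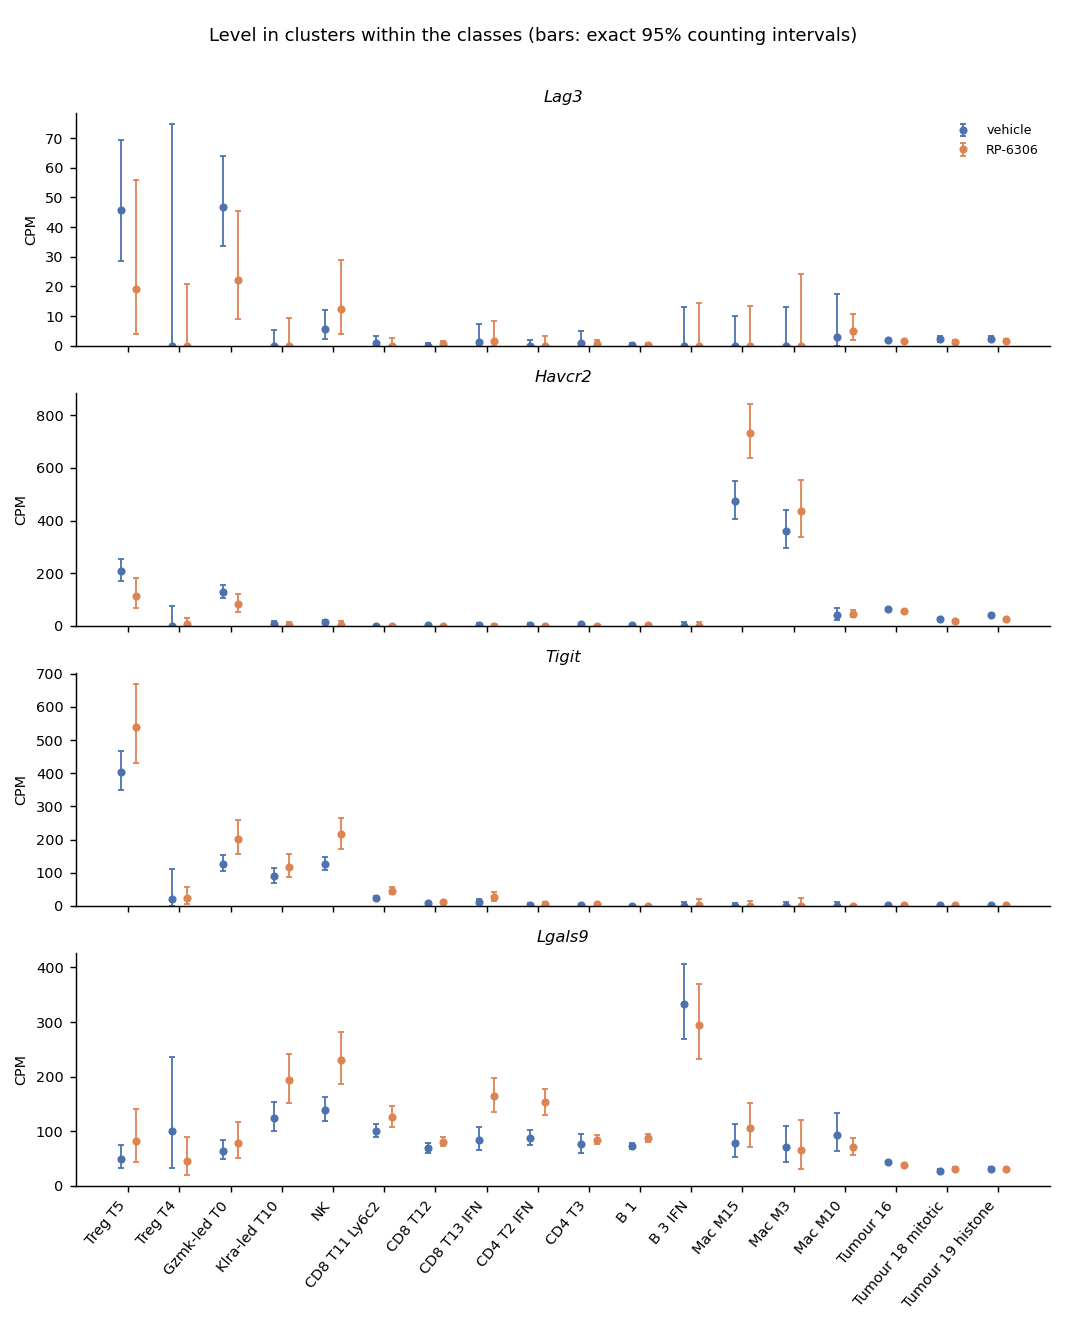
Level (CPM, linear axes that start at 0) of Lag3, Havcr2, Tigit and Lgals9 in 18 clusters of both libraries, with exact 95% Poisson intervals as bars (IFN: led by interferon-induced genes). Among the clusters shown, Tigit is highest in regulatory T cluster T5 (405 and 541 CPM), Havcr2 in macrophage cluster M15 (474 and 733 CPM), and Lgals9 in the interferon-led B cluster 3 (333 and 295 CPM).

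Among clusters of at least 50 cells, the highest Lgals9 level in both libraries was in a B cell cluster led by interferon-induced genes. Smaller clusters were not compared, among them an interferon-led tumour cluster of 12 and 8 cells. The B cell cluster, led by Slfn5, Ifit2 and Oas2 (113 and 124 cells), held 333 and 295 CPM, against 72.8 and 88.3 CPM in the main B cluster. Among CD8 T cells the cluster led by Ifit3, Ifit1 and Rsad2 (T13) held 84.2 and 164 CPM, against 69.2 and 81.1 CPM in T12, and its log2 ratio between the libraries was 0.95 (0.51 to 1.43). The Ly6c2-led CD8 T cluster T11 held 101 and 126 CPM, above T13 with vehicle and below it with RP-6306, with overlapping intervals in both libraries. Among CD4 T cells the cluster with Slfn5, Ifit1 and Ifih1 among its leading genes (T2) held 87.4 and 153 CPM, with a log2 ratio of 0.80 (0.49 to 1.13), against 76.3 and 84.8 CPM in T3. The intervals of T13 and T12, and of T2 and T3, overlapped with vehicle and lay apart with RP-6306. The interferon-led macrophage cluster M6 held 225 CPM in both libraries.

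Macrophage clusters differed widely in Havcr2. Cluster M15, led by Dmkn, Thbs1 and Chil3, held 474 and 733 CPM, and M3, with Ace, Adgre4 and Spn among its leading genes, 361 and 435 CPM. The cycling cluster M10, with Mki67 and Rrm2 among its leading genes, held 40.5 and 46.9 CPM. M10 had 19 cells with vehicle and 69 with RP-6306, and M15 had 59 and 41. In M15 the level was higher with RP-6306 with intervals apart, while over the class it was lower. Cluster M4, of 26 and 28 cells, held 202 and 62.2 CPM, so the clusters did not share a direction. A further myeloid cluster with Cd36, Ace, Adgre4 and Havcr2 among its leading genes (M2, 64 and 41 cells) was left unnamed. Its cells are therefore not part of the macrophage and monocyte values. In tumour cells Havcr2 followed cluster too: it was 62.6 and 57.4 CPM in cluster 16, the largest, 40.4 and 26.5 CPM in the cluster led by histone genes, and 26.7 and 18.7 CPM in the mitotic cluster led by Ube2c, Cdc20 and Plk1. The mitotic cluster had 330 and 708 cells and the histone cluster 562 and 830, and Havcr2 was lower with RP-6306 within each of these 3 clusters. Pvr ranged over them from 66.4 to 94.7 CPM and Nectin2 from 14.0 to 21.2 CPM.

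Few T cells had more than 1 of Lag3, Havcr2 and Tigit: at 2000 UMIs per cell, 1.02% of 4020 vehicle T cells had 2 of them and 0.149% all 3, and 0.325% and 0.0232% of 4312 RP-6306 T cells did. Among the few positive cells these genes were found together more often than among the rest. In all, 98 vehicle T cells had a Havcr2 UMI, and 38 of them (38.8%, 29.1% to 49.2%) also had Tigit, against 3.90% of the 3922 T cells without Havcr2. In the RP-6306 library 8 of 21 Havcr2-positive T cells had Tigit (38.1%), against 3.64% of the others. Of 24 vehicle T cells with Lag3, 11 had Havcr2 (45.8%), against 2.18% of those without. Cd96 went the other way, in 12.2% of the Havcr2-positive and 24.2% of the other vehicle T cells.

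The clusters differ in all of these genes, so co-detection was also read within 1 cluster. Within vehicle cluster T5, 28 of 38 Havcr2-positive cells had Tigit (73.7%, 56.9% to 86.6%), against 36 of 85 without Havcr2 (42.4%, 31.7% to 53.6%). Cd226 was found in 1 of these 38 cells and in 16.5% of the 85. Free RNA is shared by all genes of a droplet, so these shares are descriptions.

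**Figure D5:**
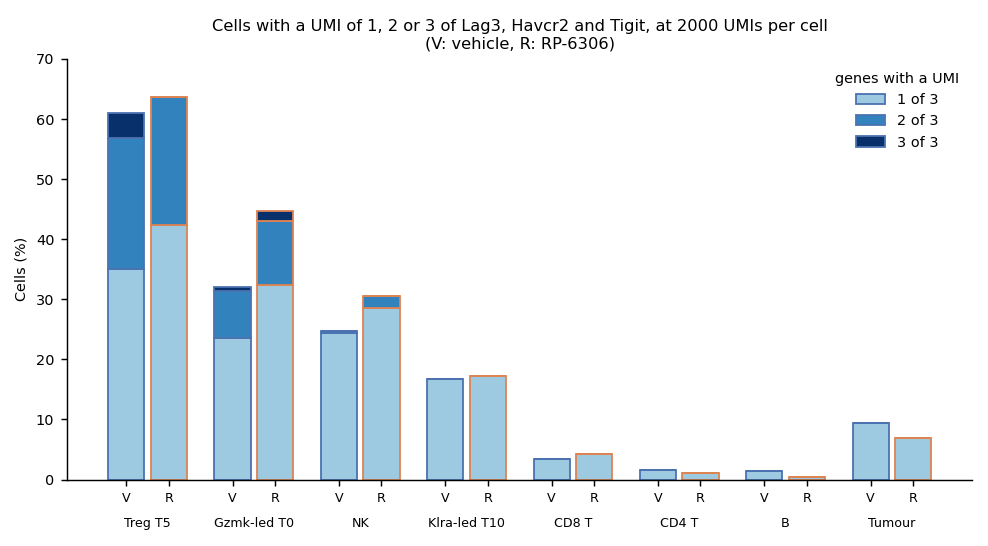
Share of cells (y axis, percent, from 0) with a UMI of 1, 2 or all 3 of Lag3, Havcr2 and Tigit at 2000 UMIs per cell, as stacked bars for vehicle (V) and RP-6306 (R) in 8 groups of cells. Cluster T5 has the tallest bars, since 39.0% of its vehicle and 36.4% of its RP-6306 cells have none of the 3, whereas at least 95.8% of CD8 T, CD4 T and B cells have none.

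Counted over Lag3, Havcr2 and Tigit, 35.0% of 123 thinned vehicle cells of T5 had 1 of the 3 genes, 22.0% had 2 and 4.07% had all 3. The 33 thinned RP-6306 cells of T5 gave 42.4%, 21.2% and 0%, the last of which allows up to 10.6%. In T0, 7.87% of vehicle and 10.8% of RP-6306 cells had 2 of the 3, and in NK cells 0.310% and 1.90% did. No thinned CD8 or other CD4 T cell had more than 1 in either library. These counts of 0 allow up to 0.174% and 0.187% of CD8 T cells and 0.275% and 0.178% of CD4 T cells. In tumour cells 9.36% and 6.96% had 1 of the 3, and 0.0939% and 0.0289% had 2.

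A list of 42 further genes of these pathways was read beside the 8: the nectin network, partners of LAG3 and TIM3, signalling partners and other inhibitory receptors. In tumour cells 0 of the 35 that passed the count minimum were called, where 1.01% of all genes tested were higher and 1.57% lower, and their median log2 ratio was -0.03 against 0.01 for all genes. In CD8 T cells 0 of 30 were higher and 3 lower, against 2.71% and 5.9% of all genes (median 0.07 against 0.03). In CD4 T cells 1 of 29 was higher and 6 lower, against 4.04% and 6.93% (0.05 against 0.02). In B cells 0 of 32 were higher and 6 lower, against 2.37% and 7.5% (0.00 against 0.01). In regulatory T cells 3 of 25 were higher and 4 lower, against 13.4% and 13.8% (-0.07 against 0.03). In NK cells 1 of 28 was higher and 3 lower, against 9.65% and 9.01% (0.03 against 0.06). In macrophages and monocytes 0 of 26 were higher and 3 lower, against 11.6% and 6.16% (-0.06 against 0.10).

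Lgals3, which encodes galectin-3, a described ligand of LAG3, was lower with RP-6306 in several classes: at 427 and 286 CPM in tumour cells (log2 ratio -0.58, just within the fold), 24.1 and 10.0 CPM in CD8 T cells (-1.18), 31.1 and 11.6 CPM in CD4 T cells (-1.35) and 149 and 32.9 CPM in regulatory T cells (-2.15). Free tumour RNA was also lower with RP-6306 in these lymphocytes. The summed level of its 4 tumour genes was 80.8 and 46.3 CPM in CD8 T cells. It was 89.6 and 54.1 CPM in CD4 T cells and 94.3 and 62.8 CPM in regulatory T cells. In tumour cells these genes stood at 1154 and 1251 CPM. The part of free tumour RNA in the lymphocyte values of Lgals3 was not tested. Those values are therefore not read as a difference in the RNA of the lymphocytes themselves. The other receptor of the nectin family named by size in tumour cells was Crtam, at 19.3 and 13.5 CPM (-0.48), and Hmgb1, a nuclear protein that binds TIM3 when released, stood at 605 and 818 CPM (0.44). Ctla4, another inhibitory receptor, stood at 37.1 and 55.1 CPM in CD8 T cells (0.56) and 63.8 and 94.2 CPM in NK cells (0.56), both within the fold. In regulatory T cells Prkcq, a kinase of T cell receptor signalling, stood at 168 and 466 CPM (1.47). In macrophages and monocytes Fyn (162 and 89.7 CPM, -0.85), Cadm1 (43.5 and 25.7 CPM, -0.74) and Ceacam1 (36.6 and 23.0 CPM, -0.65) were past the fold, where Cadm1 is the ligand of the Crtam product and Ceacam1 a described partner of TIM3.

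The genes with the most similar levels were sought over 20 profiles, 10 classes in each of the libraries, among 9893 genes that reached 20 CPM in at least 1 profile. The profiles share libraries, depth and class definitions, so the Pearson correlations of log2(CPM + 1) are descriptions. Cd226 and Cd96 were most like T cell genes, with Gprin3 (0.97), Cd247 (0.96) and Zap70 (0.96) nearest to Cd226 and Thy1 (0.99), Cd247 (0.96) and Apol7e (0.96) nearest to Cd96. Tigit was nearest to Il2rb (0.94), Rgs16 (0.93) and Ikzf2 (0.92), of which Il2rb is an interleukin-2 receptor chain of regulatory T and NK cells. Lag3 was nearest to Asb2 (0.89), Stk32c (0.87) and Tox2 (0.84), and Havcr2 to Mxi1 (0.91), Etv5 (0.91) and Adam8 (0.90). Nectin2 was nearest to Cdh5 (0.94), Arhgap28 (0.93) and Plpp1 (0.93), and Pvr to Ppard (0.94), Nadk (0.92) and Noct (0.92). Lgals9 had the weakest nearest genes, Ugcg (0.82), B4galt1 (0.78) and Cab39 (0.76).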

How the data were processed

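The authors deposited whole-number UMI counts per gene and cell barcode, 1 matrix per library, made with the SeekOne DD single cell 3' kit per the labels. The submitters' processing notes name Cell Ranger 2.1.1 and mm10, and no source used here gives their roles. The matrices held 17313 and 15909 barcodes with 135415063 and 158073632 UMIs.

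Cells with at least 500 UMIs and 300 genes and at most 15% mitochondrial UMIs were kept (scanpy 1.11.5). Automatic doublet calling marked 1 and 0 cells and had not worked, so the top 6% of doublet scores per library was removed (1026 and 952 cells). Cells were clustered on 2000 variable genes without the 8 genes (30 components, Leiden resolution 1), and T, NK and myeloid clusters were clustered again. Names came from marker lists. Clusters that were shallow, mixed or led by genes of another class stayed unnamed, and the limits for this were revised after cell numbers per library had been seen. UMIs were summed per class and library. A pseudocount of 1 CPM, a minimum of 20 UMIs and a minimum of 50 cells per library applied. Intervals were computed with scipy 1.17.1 and tested on simulated data. Named genes were the 8 in every class, up to 4 pathway genes per class with the largest absolute ratio and at least 50 UMIs in whichever library was higher, and the 3 genes most like each of the 8. The clusters, comparisons of free RNA and leading genes named beside them were chosen after values were seen. The 8 genes and the lists were chosen with earlier results of these data known. Gene positions are those of GRCm38.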

Additional observations from a re-analysis of the deposited data

Results flagged for a closer look

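For 3 genes the libraries differed in opposite directions in different classes, with intervals on opposite sides of 0. With 1 library per group each difference between classes was not tested. For Tigit the log2 ratio in NK cells (0.76) exceeded that in regulatory T cells (-0.47) by 1.23. The regulatory T value of Tigit was 0.15 at a Leiden resolution of 0.5 and -0.69 with the mean of per-cell CPM. For Cd96 the log2 ratio in regulatory T cells (1.2) exceeded that in B cells (-1.06) by 2.26, where the B value rests on 18 and 4 UMIs. The regulatory T value of Cd96 was 0.36 at a Leiden resolution of 0.5, within the fold, and within cluster T5 the gene stood at 31.2 and 31.8 CPM. For Lgals9 the log2 ratio in NK cells (0.72) exceeded that in tumour cells (-0.17) by 0.89.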

How the results depend on the processing

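The 4 higher and 7 lower calls were recomputed under each alternative. The number of lower calls was 3 with a pseudocount of 10 CPM, 3 with cells thinned to 2000 UMIs and 1 with a minimum of 100 UMIs, and the number of higher calls was 1 at a fold of 2. Under the other alternatives there were 3 to 6 higher and 5 to 8 lower calls. Fewer genes pass a minimum of 100 UMIs by construction. Counting only alternatives that left enough UMIs and cells for a value, Tigit and Lgals9 in NK cells passed the fold in 12 of 12 alternatives, Havcr2 in CD4 T cells in 11 of 11, Havcr2 in regulatory T cells in 10 of 10 and Lag3 there in 9 of 9. Tigit in CD8 T cells passed in 7 of 12. The Havcr2 ratio of CD4 T cells rests on 28 and 6 UMIs and was -0.59 with a pseudocount of 10 CPM, just past the fold. With cells thinned to 2000 UMIs it gave no value. With RP-6306 the Havcr2 level there, 0.873 CPM, was below the 1.71 CPM that free tumour RNA would give. With free tumour RNA subtracted, Havcr2 in CD8 T cells and in B cells was no longer called. Classes taken from each cell's own markers kept 5 of the 11 calls and gave Tigit in CD4 T cells a log2 ratio of -1.34. Cd96 in regulatory T cells fell to 0.36 at a Leiden resolution of 0.5. The regulatory T class gave no value with the higher minimum of UMIs per cell or with classes from each cell's own markers. No called ratio changed sign. No paired analysis was possible because each group had 1 library, and no library could be left out. Depth limits Lag3 most, with 5 and 4 UMIs in CD8 T cells.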
